A study of Mus musculus with 2 samples.

Results

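The cells described here were 70 of 7023 single mouse cells caught at day 16 of STEMCCA reprogramming, and they stood out by the transcripts of Igfbpl1, Ly6h, Car4, Wfdc12, Mlc1 and Mt3. They were chosen by their own values. The deposited value of each of these 6 genes was standardised across all cells, the 6 standardised values were averaged into a score, and the 70 highest cells were taken. Only cells with fewer than 3 detected genes among Utf1, Tdgf1, Tdh, Nanog and Dppa4, which mark cells that have entered pluripotency, could be chosen. This gate left 6466 cells, and the 6396 of them outside the 70 are called the other gated cells. The remaining 557 cells had 3 or more of the 5 gate genes.

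The cells came from mouse embryonic fibroblasts that carry the STEMCCA cassette, in which doxycycline switches on the reprogramming factors Oct4, Sox2, Klf4 and c-Myc from 1 transcript. Doxycycline, LIF and ascorbic acid were present throughout reprogramming in serum medium, so both libraries share all of these treatments, and no untreated or other time point was part of the droplet data used here. The labels put both libraries (3109 cells in replicate 1, 3914 in replicate 2) in 1 group with the same time point, cell type and protocol. The study's text speaks of a pair of separately made STEMCCA mouse lines for these droplet data. Neither the line nor the culture of a library is labelled, so a difference between the libraries may be one of mice, culture or technique. No sort is described for these libraries, and fibroblast cultures of whole embryos hold many cell types at the start.

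Reprogramming is inefficient: most cells that receive the factors lose part of the fibroblast programme without reaching pluripotency, and side populations with neural, placental or other transcripts arise beside the few cells that activate the pluripotency network. The 6 genes that define the 70 cells are not known as 1 pathway. Igfbpl1 is a secreted relative of the insulin-like growth factor binding proteins, known from progenitors of the developing forebrain. Ly6h is a brain-expressed member of the Ly6 family of surface proteins held by a lipid anchor, and Car4 is a carbonic anhydrase with the same kind of anchor. Wfdc12 is a secreted protein of the whey acidic protein family of protease inhibitors. Mlc1 is a membrane protein of astrocyte end-feet, and Mt3 is the brain-enriched metallothionein, a small protein that binds zinc and copper. All of them are protein-coding genes. On GRCm38 with the GENCODE M21 annotation Igfbpl1 lay at chr4:45809468-45826923, Ly6h at chr15:75551268-75567255, Mlc1 at chr15:88955884-88979007 and Mt3 at chr8:94152607-94154146. Car4 lay at chr11:84957786-84966044 and Wfdc12 at chr2:164189231-164190608.

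The libraries held 54145377 UMIs (replicate 1) and 64654306 UMIs (replicate 2), where a UMI is a barcode that counts 1 captured transcript. The 70 cells were not unusually deep. Their median depth was 13216 UMIs in replicate 1 and 13333 in replicate 2, beside 15205 and 13648 in the other gated cells and 28354 and 26097 in the cells with 3 or more gate genes. The deepest of the 70 had 25834 UMIs, and the deepest other gated cell had 60456. Mitochondrial transcripts took a median of 4.10% and 3.95% of UMIs in the 70 cells and 4.06% and 4.09% in the other gated cells. The same cell barcode occurred in both libraries 12 times, and 1 of the 70 cells had such a barcode.

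The 70 cells were unevenly split between the libraries. Replicate 1 supplied 58 of them, which was 1.97% of its 2949 gated cells (95% exact binomial interval 1.5 to 2.54%). Replicate 2 supplied 12, which was 0.341% of 3517 gated cells (0.176 to 0.595%). These intervals cover counting error only. Per 1000 gated cells the libraries held 19.7 and 3.41, a 5.76-fold difference, so that the mean of 11.5 ± 11.5 (SD, n = 2 libraries) had a spread as large as itself. The size of the difference depended on the scaling: with standardising within each library 48 and 22 cells were chosen, which is 16.3 and 6.26 per 1000 or 2.60-fold, and with no gate gene allowed the ratio was 3.04. Libraries of a single group cannot be tested against each other, and the mouse system, the culture and the library preparation cannot be told apart. Statements on the members of replicate 2 rest on 12 cells.

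The score had no gap at the limit. The 70 cells spanned scores from 2.59 to 10.2, and the first cell left out had 2.58. That cell held 18 Igfbpl1 UMIs and 5 Ly6h UMIs, whereas the last cell taken held 3 of each and 1 of Mlc1. The 3 highest scores belonged to replicate 2 and rested on Wfdc12: these cells held 53, 19 and 9 Wfdc12 UMIs. Together they supplied 81 of the 89 Wfdc12 UMIs found in the 12 members of replicate 2. Below them replicate 1 led, as the plot of score against rank shows. The 70 cells are thus the upper end of a continuous score, not a group set apart by it.

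**Figure D1:**
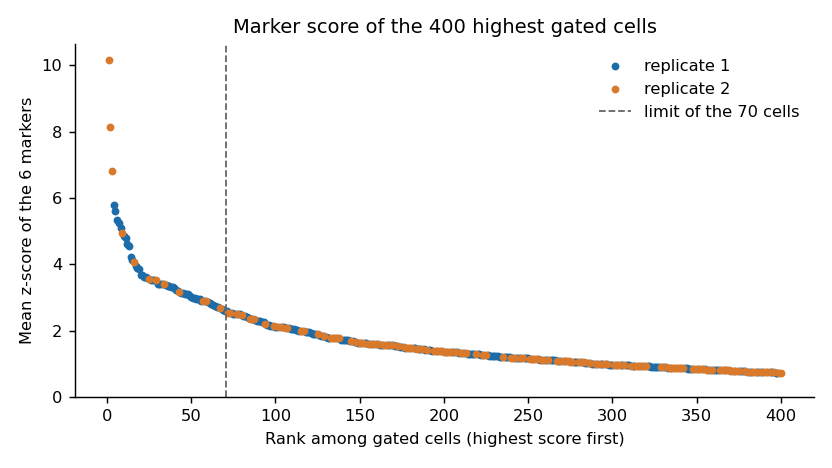
Mean standardised value of the 6 markers (vertical axis) for the 400 highest gated cells, ordered by rank (horizontal axis) and coloured by library, with a dashed line at the limit of the 70 cells. The 3 highest points are cells of replicate 2, and scores pass the limit at 2.59 without a step.

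Most members carried several markers, but none carried all 6. Of the 70 cells, 3 had 1 marker, 10 had 2, 25 had 3, 27 had 4 and 5 had 5. The 3 cells with a single marker had Wfdc12 alone. Among the other gated cells 75.8% had none of the 6, and 79 had 3 or more. Igfbpl1 or Ly6h was present in 64 of the 70. The pair found together most often was Igfbpl1 with Ly6h, in 43 cells, and Igfbpl1 with Mt3 was as frequent, also in 43 cells. Igfbpl1 with Mlc1 was found in 37 cells and Car4 with Wfdc12 in only 3, all of them from replicate 2.

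Igfbpl1 was the most widely shared marker. It was detected in 52 of 58 members of replicate 1 and 9 of 12 of replicate 2. Its level, the mean over cells of UMIs per 10000, was 6.55 and 3.39 in the members and 0.289 and 0.140 in the other gated cells. Single members of replicate 1 ranged from 0 through a median of 6.39 to 16.4 UMIs per 10000, and those of replicate 2 from 0 through 2.17 to 10.4. Igfbpl1 UMIs were not restricted to the 70 cells: 17.6% and 11.1% of the other gated cells had at least 1, as did 15.6% and 12.3% of the cells with 3 or more gate genes. When each cell was thinned to 3000 UMIs, these shares fell to 5.57% and 3.20% and to 4.38% and 1.26%, while 75.9% and 58.3% of the members kept a UMI. Free RNA in droplets also gives UMIs, and its level was not estimated. By the clusters described below, 1.17% of the cells led by Spp1, a matrix gene, had an Igfbpl1 UMI at a median depth of 12205 UMIs. The share was 23.7% in non-members of the cluster with the largest number of the 70 (depth 13478). It was 59.4% of 64 cells led by Epcam, an epithelial adhesion gene (depth 21576).

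Ly6h and Mlc1 were scarcer than Igfbpl1 outside the 70 cells. Ly6h was detected in 41 and 5 members and in 2.53% and 0.456% of the other gated cells. Its level in the members was 2.44 and 1.45 UMIs per 10000, with single cells reaching 12.04 and 10.2. Mlc1 was detected in 33 and 8 members and in 3.8% and 2.43% of the other gated cells. Among the cells with 3 or more gate genes, which were the deepest, an Mlc1 UMI was found in 1 of 160 of replicate 1 and 0 of 397 of replicate 2. The 0 of 397 has an exact upper 95% bound of 0.925%, which limits the share of cells with a UMI and not that of cells expressing the gene.

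Car4 and Wfdc12 differed by library among the members, which these markers helped to choose. Car4 was detected in 18 of 58 members of replicate 1 and 7 of 12 of replicate 2, with a level of 1.14 and 3.45 UMIs per 10000. Wfdc12 was detected in 8 of 58 and 5 of 12, and its level of 0.265 and 5.43 was carried in replicate 2 by the 3 cells named above. In the other gated cells the shares were similar between libraries, 2.21% and 2.85% for Car4 and 0.657% and 0.856% for Wfdc12.

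Mt3 was detected in 39 and 6 members, at a level of 3.29 and 1.06 UMIs per 10000 against 0.169 and 0.120 in the other gated cells. It was also found in 10.7% and 8.99% of the other gated cells, of which single cells reached 26.0 and 27.2 UMIs per 10000, beside 28.2 in the highest member. The ubiquitous metallothioneins Mt1 and Mt2, which lie beside Mt3 on chromosome 8 and whose transcription zinc and cadmium induce through metal response elements, did not follow it. Mt1 was at 18.2 and 14.9 UMIs per 10000 in the members and 15.1 and 18.5 in the other gated cells. Mt2 was at 14.5 and 13.4 against 8.47 and 10.5. Neither reached a 2-fold difference in either library. The 3 promoter windows are shown because the genes are neighbours and differed in this way. Each runs from 250 bases before to 50 bases after the start that RefSeq gives on GRCm38.p6, on the plus strand. Capitals mark the metal response element core, searched as TGCACNC and TGCGCNC on both strands.

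Mt3, chr8:94152357-94152656: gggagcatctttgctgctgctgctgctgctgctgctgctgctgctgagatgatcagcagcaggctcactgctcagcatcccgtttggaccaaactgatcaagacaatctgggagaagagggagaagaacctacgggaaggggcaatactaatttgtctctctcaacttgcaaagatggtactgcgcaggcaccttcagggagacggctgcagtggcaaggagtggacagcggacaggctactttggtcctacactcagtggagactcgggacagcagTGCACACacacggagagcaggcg

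Mt2, chr8:94172368-94172667: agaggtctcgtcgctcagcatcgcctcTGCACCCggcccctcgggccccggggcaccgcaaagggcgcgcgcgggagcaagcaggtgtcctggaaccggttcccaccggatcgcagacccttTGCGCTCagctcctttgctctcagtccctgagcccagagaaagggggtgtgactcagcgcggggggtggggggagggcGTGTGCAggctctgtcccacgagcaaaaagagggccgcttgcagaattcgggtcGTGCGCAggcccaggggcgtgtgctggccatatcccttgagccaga

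Mt1, chr8:94178839-94179138: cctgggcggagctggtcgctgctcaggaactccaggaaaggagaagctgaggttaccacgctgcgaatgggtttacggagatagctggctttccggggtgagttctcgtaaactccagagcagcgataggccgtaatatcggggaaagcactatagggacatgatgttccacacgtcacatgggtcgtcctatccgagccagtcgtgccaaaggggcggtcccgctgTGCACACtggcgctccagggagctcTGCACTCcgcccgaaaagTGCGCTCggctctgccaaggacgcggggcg

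The core matched 1 time in the Mt3 window, 4 times in the Mt2 window and 3 times in the Mt1 window. Of 32851 promoter windows of the same length, 25.7% held at least 1 match and 1.97% held 3 or more. Among the 6 markers 4 had a window in the RefSeq table (Car4, Wfdc12, Mlc1 and Mt3). The windows of Car4, Wfdc12 and Mlc1 had 0 matches. A match is a description of the letters only.

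Because the markers chose the cells, their levels in the 70 cells are no finding. A level that its own value did not choose was obtained by selecting 70 cells anew with the other 5 markers and reading the one left out. The 6 markers were picked as a set with earlier results of these data known, and 49 to 62 of the cells chosen anew were members. A high left-out level is therefore a description and no independent support for the set. Igfbpl1, Ly6h, Mlc1 and Mt3 were more than 2-fold higher in the cells so chosen than in the other gated cells, in both libraries. Left-out Igfbpl1 was detected in 42 of 52 chosen cells of replicate 1 and 10 of 18 of replicate 2, and differed from the other gated cells by 3.89 and 3.36 on the log2 scale. All log2 differences given here are between log2(level + 0.1) values, so that changes of low genes come out smaller than they are. The difference was 2.79 and 1.5 for Ly6h, 2.46 and 2.1 for Mt3 and 2.03 and 2.27 for Mlc1. Ly6h in replicate 2 rested on 3 of 20 chosen cells.

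Left-out Car4 and Wfdc12 behaved differently by library. In replicate 2 they differed by 3.13 and 5.46, from 4 of 12 and 4 of 13 chosen cells. In replicate 1 Car4 differed by 0.61 and stayed under 2-fold, although it was detected in 8 of 58 chosen cells (13.8%) and in 2.56% of the other gated cells. Wfdc12 differed by 0.05, with 1 of 57. In replicate 1, which holds most of the members, Wfdc12 was thus about as rare in cells chosen by the other 5 markers (1.75%) as in the other gated cells (0.899%). Over the 6 markers the median of the mean differences was 2.21.

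**Figure D2:**
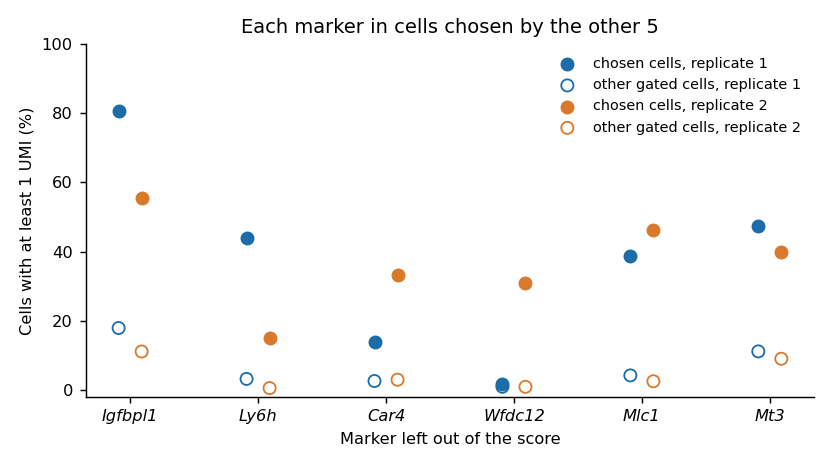
Percent of cells with at least 1 UMI of each marker (vertical axis) when that marker was left out of the score, in the 70 cells chosen by the other 5 (filled) and in the other gated cells (open), by library. Igfbpl1, Ly6h, Car4, Mlc1 and Mt3 lie above the other gated cells in both libraries, Car4 at 13.8% and 2.56% in replicate 1, whereas Wfdc12 does so in replicate 2 and is at 1.75% and 0.899% in replicate 1.

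The 70 cells lay near each other by genes that the rule did not use. Gated cells were placed in 30 principal components of 2000 variable genes, without the 6 markers and 5 gate genes, and the 15 nearest neighbours of each cell were found. On average 28.4% of a member's neighbours were members (29.0% in replicate 1 and 25.6% in replicate 2), which is 26.2-fold the 1.08% that the 70 make up of gated cells. Embedded alone, replicate 1 gave 30.1%, which is 15.3-fold its share of 1.97%, and replicate 2 gave 13.3%, which is 39.1-fold its share of 0.341%. For the other gated cells the share was 0.482%. The share varied among members: 7 had no member among their neighbours, including all 3 cells whose only marker was Wfdc12, and the highest had 73.3%. Other gated cells with 3 markers had 9.44% members among their neighbours, those with 2 had 2.97%, and those with none had 0.113%, so closeness to the 70 rose with the number of markers.

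Clustering of gated cells on the same components, again without the rule genes, gave 19 clusters and did not isolate the 70 cells. One cluster of 450 cells held 33 of them (24 and 9 by library), and they made up 7.33% of it. Its leading genes were Cytl1, Lrmp, Ntrk2 and Cib2, and it is called the Cytl1 and Lrmp cluster below. A further 25 members lay in 2 clusters led by cell cycle genes, 14 in that led by Cdc20 and Cenpa (476 cells) and 11 in that led by 2810417H13Rik and Hist1h1b (462 cells). These had the highest summed level of the G2 and M phase list and of the S phase list and are called the cycle clusters below. Of these 25, 24 came from replicate 1 and 1 from replicate 2. The cluster led by Tac2 held 6, that led by Perp and Krt19 held 5 and that led by Rgcc and Rarres2 held 1. The other 13 clusters held none, among them those led by Pcp4, by Spp1 and by Mylk. They also included 2 more clusters with at least 2 genes of the cycle lists among their 10 leading genes, 1 of 384 cells led by 2810417H13Rik and Top2a and 1 of 253 cells led by Rrm2 and Cd24a. Their S phase sums of 13.2 and 13.3 UMIs per 10000 were near the 14.6 of the S phase cycle cluster and both held 0 members.

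**Figure D3:**
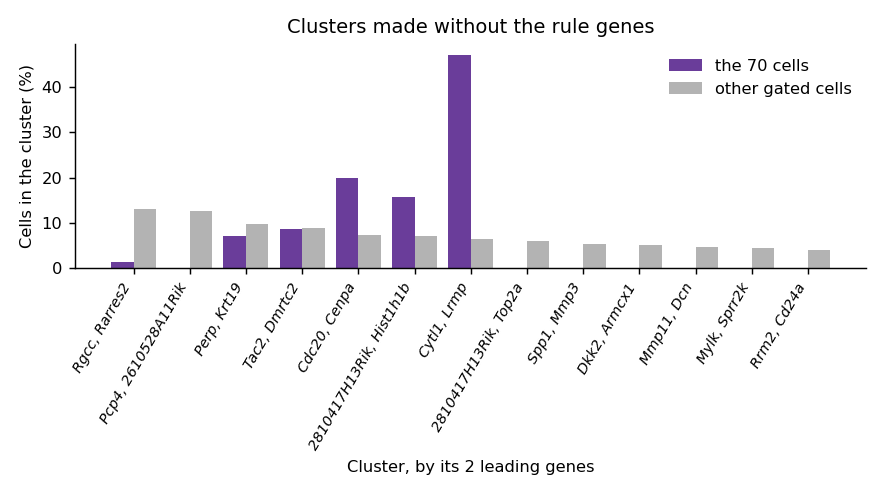
Percent of the 70 cells and of the other gated cells (vertical axis) in each of the 13 clusters with 200 or more cells, named by their leading pair of genes; the 6 smaller clusters held no member. The Cytl1 and Lrmp cluster held 47.1% of the 70 cells and 6.52% of the others, and the 2 cycle clusters that held members had 20% and 15.7% of the 70.

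Genes outside the rule were compared between the 70 cells and the other gated cells within each library. Since the same cells supplied both the choice and the comparison, and genes move together, the differences are a description with no p-value. A gene was called where its level differed at least 2-fold on the log2(level + 0.1) scale in both libraries. Of 4674 genes with a sufficient level, 46 were higher (0.984%) and 181 were lower (3.87%) in the 70 cells. Replicate 1 alone gave 91 higher (1.95%) and 278 lower (5.95%) genes, and replicate 2, with its 12 members, 166 higher (3.55%) and 446 lower (9.54%). The genes higher in both were 50.5% of those of replicate 1 and 27.7% of those of replicate 2. For the lower genes these shares were 65.1% and 40.6%, and 2 genes were called in opposite directions. The median difference over all tested genes was 0.02 and 0.00. The higher genes rested on few transcripts in replicate 2, a median of 11 UMIs over its 12 members, against 56.5 in replicate 1.

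**Figure D4:**
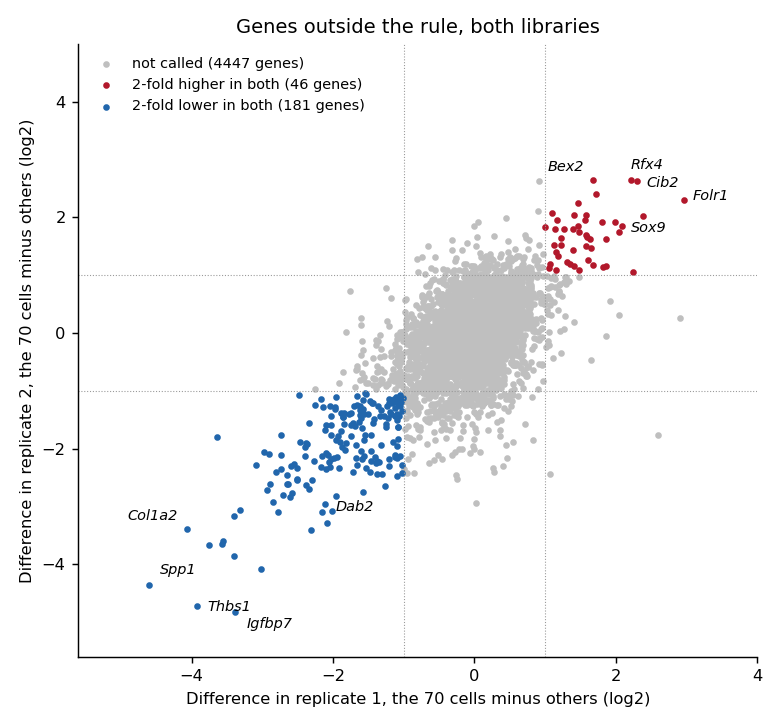
Difference of each tested gene between the 70 cells and the other gated cells in replicate 1 (horizontal axis) and replicate 2 (vertical axis), both on the log2 scale, with dotted lines at 2-fold. The 181 lower genes reach further from 0 than the 46 higher genes, and Spp1, Thbs1 and Igfbp7 lie lowest.

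The named higher genes are described by their known roles, an order made after their values were seen and not a tested grouping. Rfx4, Sox9 and Sox11 are transcription factors. Rfx4, a regulatory factor X protein of the neural tube, was detected in 22 of 58 and 6 of 12 members but in 2.25% and 0.713% of the other gated cells. Its level was 0.442 and 0.562 UMIs per 10000 against 0.0165 and 0.00578, a difference of 2.22 and 2.65. Sox9, which specifies glia and cartilage, was at 0.547 and 0.459 against 0.0522 and 0.0551 (2.09 and 1.85), although in replicate 2 it came from 3 cells. Sox11, known from immature neurons and many embryonic progenitors, was detected in 49 and 8 members, with a level of 1.84 and 1.65 against 0.522 and 0.468. Sox1, which marks early neural progenitors, lay under the level limit for calling. It was singled out after its values were seen: it had a UMI in 21 of 58 members of replicate 1 (36.2%) and in 2.73% of its other gated cells, but in 1 of 12 members of replicate 2.

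Folr1, Cd24a, Cldn3, Pllp, Smagp and Prom1 encode proteins of the cell membrane. Folr1, the folate receptor alpha, was detected in 31 and 5 members and in 3.42% and 2.94% of the others. Its level was 0.889 and 0.564 against 0.0267 and 0.0355, a difference of 2.96 and 2.29, and the cells with 3 or more gate genes also had it, at 0.469 and 0.594. Cd24a, a small lipid-anchored glycoprotein of progenitors and epithelia, was at 2.03 and 1.64 against 0.435 and 0.360. Cldn3, a claudin of tight junctions, was at 0.388 and 0.593 against 0.0642 and 0.0787. Pllp, a membrane protein of myelin and epithelia, was found in 48 of 58 and in all 12 members and differed by 1.59 and 1.67. Smagp, a small transmembrane glycoprotein, differed by 1.58 and 1.5. Prom1, the CD133 antigen of stem cells, was also higher, by 1.40 and 1.80, with 18 and 4 members detected.

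The remaining named higher genes encode proteins of various functions. Cib2, a calcium and integrin binding protein, led the named genes when ranked by the smaller of the differences of the libraries. It was at 2.29 and 4.54 UMIs per 10000 against 0.385 and 0.653 (2.30 and 2.62) and nearly absent from the cells with 3 or more gate genes (0.0775 and 0.0527). Crym, which binds thyroid hormone, was at 11.3 and 12.4 against 3.73 and 3.76. Crabp1, which binds retinoic acid in the cytoplasm, was at 8.87 and 7.09 against 2.83 and 2.90. Slc7a11, the cystine importer, differed by 1.72 and 2.41, the latter from 3 cells. Acot1 and Acsbg1, which cleave and make fatty acyl-CoA, differed by 1.87 and 1.62 and by 1.46 and 2.24. Enah and Daam1, which promote actin filament growth, differed by 1.48 and 1.74 and by 1.47 and 1.85. Lrmp, an endoplasmic reticulum protein, was found in 25 members of replicate 1 but in 1 of replicate 2. Zfp30, a zinc finger gene, differed by 1.65 and 1.47.

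Bex1, Bex2 and Bex4, small X-linked proteins named for their expression in brain, were each higher in both libraries. Bex4 was at 1.72 and 1.34 against 0.341 and 0.331, Bex2 at 0.586 and 1.10 against 0.115 and 0.0904, and Bex1 at 1.49 and 1.99 against 0.433 and 0.409. The cells with 3 or more gate genes had these genes as well, with Bex1 at 3.0 and 4.96. Bex1 and Bex2 are close copies, as are Acot1 and its neighbours, so reads may have been divided between copies by the counting.

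Part of these differences followed the clusters in which the members lay. Within the Cytl1 and Lrmp cluster, a comparison added after the values were seen, 15 of the 46 higher genes were at least 2-fold higher in its members than in its other cells in both libraries, and 45 differed in the same direction. The median difference of the 46 was 0.91 and 1.25 there, against 1.53 and 1.68 over all gated cells. Among the 20 named higher genes 10 kept a 2-fold difference in both libraries within the cluster, including Folr1 (2.37 and 2.18), Rfx4 (1.80 and 2.73), Sox9 (2.20 and 1.67), Cd24a (1.68 and 1.60) and Sox11 (1.38 and 1.2). Lrmp (0.22 and 1.38), Acsbg1 (0.33 and 1.37), Crym (0.95 and 0.95) and Cib2 (0.71 and 1.74), itself a leading gene of the cluster and of that led by Tac2, did not, and the other cells of the cluster held them above the average gated cell. Cib2 was at 1.67 and 1.54 UMIs per 10000 in those cells. When the 2 cycle clusters were left out, 19 of the 20 stayed 2-fold higher in both libraries, the exception being Zfp30 with 0.81 in replicate 2. The number was also 19 without all 4 clusters led by cycle genes.

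Members of the Cytl1 and Lrmp cluster and of the cycle clusters were chosen by the same markers. Marker levels in the former and in the latter are therefore given as description only. In replicate 1, where each held 24 members, Igfbpl1 was at 7.76 UMIs per 10000 in the former and 5.96 in the latter, Ly6h at 2.57 and 2.75, and Mt3 at 2.66 and 3.49. Sox9 was at 0.973 in members of the former and 0.320 in members of the latter, and Mlc1 at 1.12 and 0.658. Car4 was at 1.65 and 0.408. These differences among members of 1 library were not tested.

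Genes of the extracellular matrix held the lowest differences from the average gated cell. Spp1, the matrix phosphoprotein osteopontin, was at 0.279 and 0.186 UMIs per 10000 in the 70 cells and 9.10 and 5.76 in the other gated cells, a difference of -4.60 and -4.36. In the others it was uneven: the median cell had 0 and the highest 944 and 861. Thbs1, the adhesive glycoprotein thrombospondin, was at 0.193 in members of replicate 1 and at 0 UMIs in those of replicate 2, against 4.35 and 2.53. Col1a2, a chain of type I collagen, was at 0.819 and 0.740 against 15.3 and 8.72 (-4.07 and -3.39). Its highest member cell had 10.3, whereas the median other cell of replicate 1 had 8.28. Col1a1 and Col3a1 differed by -3.56 and -3.59 and by -3.76 and -3.67, and Col8a1 had 5 UMIs in all members. The proteoglycan Bgn was at 1.48 and 1.42 against 16.6 and 13.5. Lox, which cross-links collagen, Timp3, an inhibitor of matrix proteases, and Aspn, a collagen-binding proteoglycan, differed by -3.31 and -3.05, by -3.01 and -4.08 and by -2.85 and -2.92. Gpx3, a secreted peroxidase, and Igfbp7, a secreted binding protein, were also among the lowest. Not all of these differences were found within the cluster that held the largest number of members. Within the Cytl1 and Lrmp cluster 4 of the 12 named lower genes were 2-fold lower in members than in its other cells in both libraries. Spp1 differed there by 0.60 and -0.11, Aspn by 0.37 and -0.35, Lox by -0.05 and -0.44 and Col8a1 by -0.51 and -0.73.

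The lower genes fell into several of the fixed lists. Of the 12 fibroblast genes, 9 were tested and all 9 were lower: Col1a1, Col1a2, Col3a1, Thy1, Dcn, Pdgfrb, Prrx1, Fbn1 and Fn1. The other 3 (Lum, Postn and Twist2) lay under the level limit. The median difference of the tested genes was -2.10 and -1.89. The summed level of the list was 4.67 ± 3.90 (SD over 58 cells) in replicate 1 and 4.19 ± 1.91 (12 cells) in replicate 2, against 41.4 and 26.2 in the other gated cells. The other cells of the Cytl1 and Lrmp cluster had 7.66 and 8.17, and those of the cycle clusters 9.06 and 8.52. Both values lie closer to the members than to the average gated cell. Within the Cytl1 and Lrmp cluster the 181 lower genes had a median difference of -0.54 and -0.85, against -1.71 and -1.89 over all gated cells, and 30 of the 181 kept a 2-fold difference in both libraries.

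Contractile and senescence genes were lower too. Of 5 tested smooth muscle genes 4 were lower (Tagln, Mylk, Tpm2 and Actg2), and Acta2 was at 10.7 and 4.89 against 18.9 and 11.6. Mylk and the sum of Mylk, Thbs1 and Itga11, which label another state in these data, were at 0 in the members of replicate 2. Of 5 tested senescence genes 4 were lower. Cdkn2a, which encodes the cell cycle inhibitors p16 and p19, was at 0.391 and 0.0574 against 1.36 and 0.957, and its neighbour Cdkn2b differed by -2.16 and -1.14. Cdkn1a, which encodes p21, differed by -0.97 and -1.35 and was not called. The 3 tested genes of the primitive endoderm list (Dab2, Sparc and Col4a1) were lower, but fibroblasts express all of them, and its defining members Gata6, Gata4, Sox7 and Foxa2 were at 0 UMIs in the 70 cells.

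The insulin-like growth factor axis, in which Igfbpl1 is a distant member, was lower in part. Its 9 tested genes held 3 lower ones, the binding proteins Igfbp3 (0.291 and 0.120 against 1.95 and 1.27), Igfbp4 (0.0497 and 0.0594 against 0.951 and 0.739) and Igfbp7 (0.308 and 0 against 4.15 and 2.72). Igfbp2 was at 2.62 and 1.30 against 1.71 and 1.09 and was not called. Families of the other markers showed no shared increase. Of the Ly6 and uPAR family 3 tested genes (Ly6a, Ly6e and Cd59a) held no call, and the carbonic anhydrases other than Car4 summed to 0.161 and 0.114 against 0.267 and 0.309, with no gene tested. Of 2 tested genes with a whey acidic protein domain, Wfdc17 was lower and Wfdc2 differed by 0.97 and 0.99. Among partners of Mlc1, Atp1b2, a sodium pump subunit of glia, was higher (0.195 and 0.562 against 0.0378 and 0.0571). Hepacam, which encodes GlialCAM, was found in 2 members, and Aqp4, the water channel of astrocyte end-feet, had 0 UMIs.

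The marker lists did not give the 70 cells a cell type. Of 12 astrocyte genes, Aqp4, Slc1a2, S100b, Aldh1l1 and Cspg5 had 0 UMIs in all 70 cells and Gfap was detected in 2 cells. Without Mlc1 and Mt3, the list summed to 1.40 and 0.933 UMIs per 10000 against 1.17 and 1.28. Of the neural progenitor list Hes5 and Hopx had 0 UMIs, none of the 3 tested genes (Vim, Ptn and Dbi) was called, and Vim differed by -0.92 and -0.84. Sox1, also on this list, went the other way: it was more frequent in members than in the other gated cells of replicate 1, as given above. It lay under the level limit and was found in 1 member of replicate 2. Neuronal Stmn2 and Ncam1, the 2 tested of 12, were lower, and Elavl3, Nefl, Nefm, Snap25 and Syt1 were at 0. In the oligodendrocyte and Schwann list Olig2, Sox10 and S100b were at 0. Tppp3, the 1 tested gene of the ependymal and ciliated list, differed by 2.05 in replicate 1 and 0.31 in replicate 2. Tmem212 and Fam183b were at 0. The whole list summed to 1.73 and 0.434 UMIs per 10000 in the 70 cells against 0.337 and 0.170 in the other gated cells. Tppp3 made up 1.42 and 0.181 of the former and 0.266 and 0.127 of the latter. Mesothelial Msln and endothelial Plvap were not called. Of the epithelial list Cldn3 alone was tested and higher, while Cldn4, Cldn6, Esrp1 and Ocln were at 0. Cdh1 was found in 1 cell. Epcam, under the level limit, was found in 17 and 1 members (29.3% and 8.33%), against 7.47% and 3.37% of the other gated cells. The epithelial list summed to 1.03 and 1.00 UMIs per 10000 against 0.688 and 0.576. The chondrocyte genes Acan, Col2a1, Col9a1 and Matn3 were at 0 although Sox9 was higher. The macrophage list summed to 0.135 and 0.0594 against 0.337 and 0.712, and Ptprc, Csf1r, Adgre1, Lyz2, C1qa, C1qb, Fcer1g and Mrc1 were at 0. Of 39 lists outside the rule, 10 had no gene with a sufficient level, and 14 more had no call among the tested genes. The name used here therefore remains that of the leading genes.

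**Figure D5:**
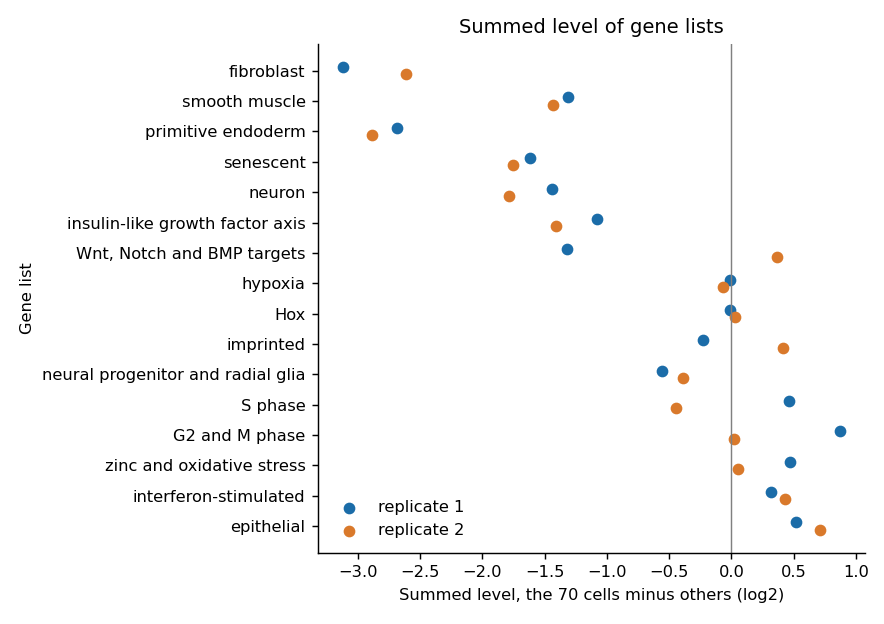
Difference in summed level between the 70 cells and the other gated cells for a chosen part of the 39 gene lists outside the rule. Differences (horizontal axis, log2 scale) are given by library, with rule genes left out of every sum. Lists not drawn include the ependymal and ciliated list at 2.06 and 0.98 and the macrophage list at -0.89 and -2.35. The fibroblast list lies at -3.12 and -2.62 and the primitive endoderm list at -2.69 and -2.89, and the S phase list lies on opposite sides of 0 in the libraries at 0.46 and -0.45.

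Signalling and stress lists held few calls. Hes1, a target of Notch, was lower at 0.471 and 0.429 against 2.35 and 2.13. Id3, a target of BMP signalling, was at 0.963 in members of replicate 1 against 3.49 in its other gated cells, but at 5.78 against 3.44 in replicate 2. Of 9 tested hypoxia genes 1, Adm, was lower, and of 5 tested zinc and oxidative stress genes 1, Slc7a11, was higher. Of the interferon-stimulated list, no gene of 3 tested was called. Of 4 tested Hox genes, Hoxa10 was higher (1.05 and 1.12) and Hoxc8 lower (-1.20 and -1.37). Of 9 tested imprinted genes, Cdkn1c was lower. Dlk1 had 66 UMIs in replicate 1, all from 3 members, and 0 in replicate 2.

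Cell cycle transcripts differed between the libraries. None of 12 tested S phase genes and none of 14 tested G2 and M phase genes was called. The G2 and M phase list summed to 14.1 UMIs per 10000 in members of replicate 1 against 7.65 in its other gated cells, and to 6.90 against 6.78 in replicate 2. Single members of replicate 1 ranged from 0 through a median of 2.70 to 71.3, so members included cells with and without mitotic transcripts. The sum of replicate 2 was carried by 1 cell at 68.5. Within the cycle clusters the 24 members of replicate 1 had 31.9 and the other cells 29.4.

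Transcripts of the pluripotency network were few in the 70 cells, although those outside the gate summed to more than in the other gated cells. By the gate, 29 had none of the 5 gate genes, 34 had 1 and 7 had 2, and Tdh, an enzyme of threonine breakdown in pluripotent cells, was the most frequent, in 24 and 6 cells (41.4% and 50.0%, against 20.1% and 18.2% of the other gated cells). Since the gate used the values of its 5 genes, their shares and levels are description only. They summed to 1.37 and 1.07 UMIs per 10000 in the 70 cells and 0.469 and 0.354 in the other gated cells. Of the sum in the 70 cells, Tdgf1 supplied 0.512 in replicate 1, from 7 cells, and 0 in replicate 2. The list of 16 other pluripotency genes summed to 2.54 and 3.45 against 1.61 and 1.95. Tdh alone was at 0.746 and 0.965 in the 70 cells. The other cells of the Cytl1 and Lrmp cluster held Tdh at 0.768 and 0.617, so its level was in part shared with them. L1td1 was at 1.47 and 1.72 in the 70 cells and 1.17 and 0.999 in those cells. Pou5f1, the endogenous or cassette-borne Oct4, was at 0.0866 and 0.189 UMIs per 10000 against 0.0834 and 0.153 in the other gated cells and 9.84 and 11.1 in the cells with 3 or more gate genes. Sox2 was found in 3 members of replicate 1. Klf4 was at 0.0371 and 0 against 0.221 and 0.192, and Myc at 0.131 and 0.538 against 0.147 and 0.117. Whether these reads came from the cassette cannot be told apart in 3' counts by gene. Of 16 pluripotency genes outside the gate 3 were tested and none was called: L1td1 differed by 0.80 and 1.13, Tfcp2l1 by -0.00 and 1.85 and Dppa5a by 0.46 and -0.64. Esrrb, Dppa3, Dppa2, Lin28a and Tcl1 were at 0.

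The members included cells of both sexes by their transcripts. In replicate 1, 30 members had Xist, the RNA of the inactive X chromosome, without Y-linked UMIs, 14 had Y-linked UMIs (Ddx3y, Eif2s3y, Kdm5d or Uty) without Xist, 2 had both and 12 neither. In replicate 2 the numbers were 3, 8, 1 and 0. The other gated cells had Xist alone in 46.1% and 46.0% and Y-linked UMIs alone in 34.2% and 32.3%. The 8 of 12 with Y-linked UMIs alone in replicate 2 has an exact 95% interval of 34.9 to 90.1%. The 3 of 12 with Xist alone has one of 5.49 to 57.2%. In replicate 1 the 14 with Y-linked UMIs alone have an interval of 13.9 to 37.2%. These are counting intervals of 12 and 58 cells chosen by score. Cells of 1 library are not replicates, so a difference in sex from the other gated cells was not tested. Xist itself was at 5.43 and 2.25 UMIs per 10000 against 4.76 and 5.16, and was at 0.295 and 0.372 in the cells with 3 or more gate genes.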

How the data were processed

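Droplet 3' single-cell RNA-seq (10x Chromium V2) was made from day 16 cells. According to the study's methods and processing notes, the authors counted reads with Cell Ranger 2.1.1 on mm10 and kept cells by detected genes and mitochondrial share in Seurat. No source used here states how doublets were treated. The authors deposited natural log values, ln(1 + UMIs per 10000 of the cell). Back on a linear scale 100% were whole multiples of the cell's smallest value within 0.01, so UMIs were recovered.

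Levels are means over cells of UMIs per 10000. Genes were called at a 2-fold difference of log2(level + 0.1) in both libraries, among genes whose members' and others' levels average at least 0.2. No test was made on members against others. Named genes were the rule genes, the 20 higher (20 UMIs, 25% of members detected) and 12 lower (0.5 per 10000) genes with the largest difference, and up to 4 per list; others were named after their values were seen. Members and lists were chosen with earlier results of these data known. Clustering used scanpy 1.11.5, scikit-learn 1.9.0 and leidenalg 0.10.2 at resolution 1. Calling was also run on simulated UMI sums with known changes. These sums held no variation between cells, no difference in profile between libraries and no choice by score. Calls that rest on few cells were therefore not tested by them.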

Additional observations from a re-analysis of the deposited data

How the results depend on the processing

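Of 360 differences recomputed for the 60 markers and called named genes under the alternatives, 0 changed sign and 147 moved by more than 1 SD. Neither an offset nor the loss of a library could change a sign here, since these genes differed in the same direction in both libraries. Only the choices of 50 and 100 cells could have done so. Counts depended on the offset and filter. With an offset of 0.01 in place of 0.1, 70 genes were higher. With an offset of 1, 4 were higher and 29 lower, and the median left-out marker difference was 0.75, since a larger offset shrinks low genes. With a level limit of 0.5, 20 were higher and 102 lower, and with no limit 281 were lower. With 50 cells, 102 were higher and 301 lower; replicate 2 then had 9 members and calls came from replicate 1 alone. Leaving out a replicate gave 98 to 229 higher and 293 to 353 lower genes, because 1 library then made the call, and left-out medians of 2.24 to 2.70. Among cells of the cycle clusters only, an alternative chosen after seeing the data, 78 were higher and 77 lower in replicate 1 alone; other added alternatives left the counts within 1.5 times. The neighbour share was 22.4% with 50 cells, 33.1% with 100, 22.6% with no gate gene allowed, 24.0% with standardising within each library, 23.8% with 30 neighbours, 19.3% with 15 components and 13.3 to 30.1% without a replicate. With no gate gene allowed, the 29 members without a gate gene were chosen again, which the rule fixed in advance. The other members were barred by that gate whatever their score. With standardising within libraries 59 of the 70 were chosen again, and of the cells so chosen 48 came from replicate 1 and 22 from replicate 2. No paired analysis was possible because the labels give 1 group of samples and no replicate numbers; members and other cells were compared within each library. The number of members, 12, limits replicate 2, whose members were as deep as those of replicate 1.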
